A study of Mus musculus with 4 samples.

Results

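The genes described here encode 8 transcription factors that set intestinal identity and region, namely Gata4, Gata5, Gata6, Cdx1, Cdx2, Hnf4a, Hnf4g and Pdx1. They were chosen by name for their known roles in the gut and not by their values, although earlier results of these data were known. They are 8 of the 55487 genes listed in the series. RNA-seq was performed on mouse small intestinal (SI) organoids, epithelial cultures that were grown from isolated crypts in IntestiCult medium and hold stem cells with their differentiated progeny. The mimic control group, replicates 1 and 2, carried a lentivirus expressing a miRNA mimic control, and the mimic group, replicates 3 and 4, carried one expressing a miR-181a-5p mimic. Both groups were kept in puromycin at 2 μg/ml, which leaves the transduced cells, so neither group was free of virus or drug. The strain, age and sex of the mice and the segment of the intestine that gave the crypts are not given in the sources used here, and neither is whether each library stemmed from a transduction of its own. The p-values therefore measure the spread between these libraries, which may be technical.

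GATA, CDX and HNF4 factors bind DNA together at the enhancers of the intestinal epithelium. CDX2 and CDX1 are caudal-type homeobox factors that maintain intestinal against gastric identity, and HNF4A and HNF4G are paralogous nuclear receptors that drive enterocyte genes for lipid absorption and the brush border. GATA4 is a factor of the duodenum and jejunum and is missing from the distal ileum, GATA6 is present along the whole intestine, and PDX1 is a homeobox factor of the pancreas and the proximal duodenum.

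The libraries held 31104884 to 38111731 expected counts, in which RSEM divides a read that matches several transcripts among them. The labelled cell type, intestinal epithelium, was compared with its markers. All 15 epithelial markers were tested, and their summed normalized CPM (read counts scaled to the corrected library size) ranged from 6018 to 6761. The sum was 5.13 to 8.65 for 11 mesenchymal markers, with Col1a2, Col3a1, Dcn and Lum at 0 counts in every library, 4.23 to 6.49 for 7 leukocyte markers and 1.31 to 2.30 for 5 endothelial markers, with Cdh5 and Kdr at 0. For 4 neural markers it was 1.21 to 3.39, and 1 of them, S100b, fell (adjusted p = 0.034 in edgeR). Among the epithelial markers the stem cell gene Lgr5 fell by 1.38 on the log2 scale (standard error 0.26, adjusted p = 0.0369 in edgeR), from 115 and 92.7 TPM in the controls to 26.9 and 54.1 TPM, where TPM is a level scaled for gene length. The part of Lgr5 and S100b in the results that follow was not tested.

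The sequence that the mimic supplies, and its matches in the members, are shown first because a miRNA lowers mRNAs that pair with its seed, bases 2 to 8. The mature miR-181 family, from RefSeq, shares 1 seed, printed in capitals:
mmu-miR-181a-5p: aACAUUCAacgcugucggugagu
mmu-miR-181b-5p: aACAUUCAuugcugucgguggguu
mmu-miR-181c-5p: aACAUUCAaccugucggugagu
mmu-miR-181d-5p: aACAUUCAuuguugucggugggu

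A full seed match (TGAATGT, on the mRNA strand) was sought in the longest annotated 3′ UTR of each gene. All 8 members have such a UTR, and 1 of them, Gata6, held a full match, followed by an A. The other 7 held none, and 18.4% of the 12840 tested genes with a 3′ UTR of at least 50 bases held 1 or more. The shorter match GAATGT stood once in Cdx2 and in 2 places in Hnf4a, and the UTRs of Gata4, Gata5, Cdx1, Hnf4g and Pdx1 held neither. Among the tested genes with such a UTR, the median log2 fold change was 0.03 with a full match and 0.03 without. The matches in Cdx2 and Hnf4a are shown, with the matched bases in capitals, from GRCm38 at chr5:147301152-147301174 (minus strand), chr2:163570830-163570852 and chr2:163571778-163571800 (plus strand):
Cdx2: gagctgctgtaggcgGAATGTat
Hnf4a, first match: gtgtcgattataacaGAATGTgg
Hnf4a, second match: caatgggaacaagagGAATGTcc

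CDX2, GATA6 and NLK have been described as miR-181 targets in liver cancer cells, which makes their direction in the organoids a question of this comparison. None of the 3 genes passed the test, and all 3 values were above 0, although Gata6 was at -0.017 without control replicate 1. Cdx2 had a log2 fold change of 0.32, Gata6 of 0.04 and Nlk, a kinase gene of the Wnt pathway with 1 full match, of 0.54, with adjusted p-values of 0.0902, 0.812 and 0.0646 in edgeR's quasi-likelihood test. Nlk was called higher in DESeq2 and in edgeR's exact test, and Cdx2 in DESeq2.

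Between the mimic and mimic control organoids, 2 of the 8 members passed the quasi-likelihood test of edgeR (adjusted p under 0.05). Pdx1 fell and Cdx1 rose. All 8 passed the filter on low counts. Of the 17155 genes tested, 3.57% had an adjusted p under 0.05, and 2.06% also had a fold change of at least 2, which among the members Pdx1 alone had. The libraries of the groups did not overlap for 5 members, Cdx1, Cdx2, Hnf4a, Gata4 and Pdx1, against 58.4% of all tested genes. The log2 fold change was above 0 for 6 members and below 0 for Gata4 and Pdx1, with a median of 0.25 over the members and of -0.01 over all tested genes. In bulk RNA, fewer cells that express a gene and less of its RNA per cell cannot be told apart.

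**Figure D1:**
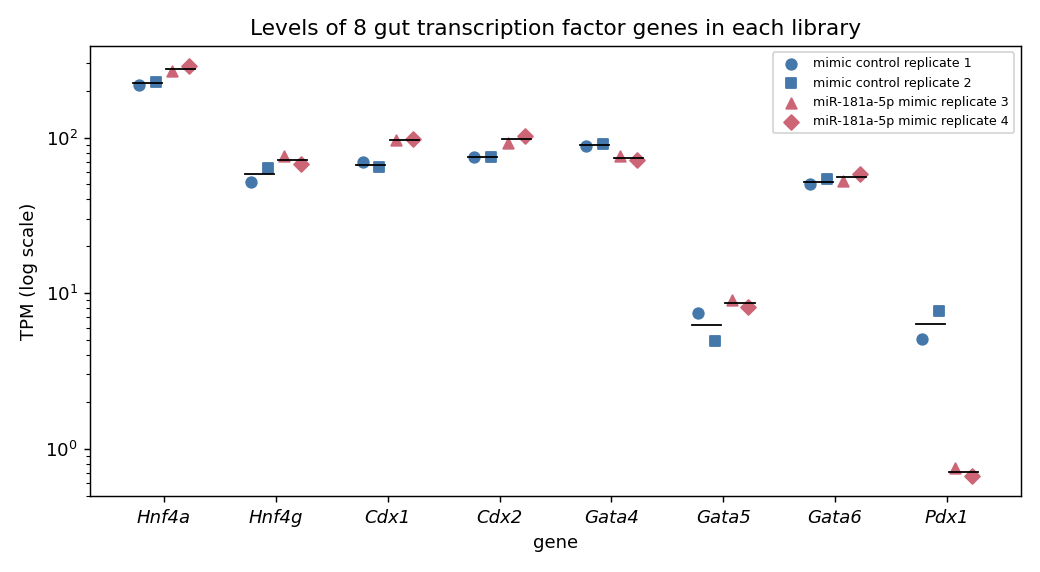
TPM of the 8 members (log axis) in each of the 4 libraries, with a black line at the mean of each group of 2 libraries. Both mimic libraries of Pdx1 lie below 1 TPM and both controls above 5, whereas for the other 7 genes the groups lie close together.

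Pdx1 was the member with the largest change. It had 338 and 413 expected counts in control replicates 1 and 2, against 41 and 38 in mimic replicates 3 and 4. In normalized CPM these are 8.82 and 13.3 against 1.31 and 1.07, so both mimic libraries lay far below both controls. Pdx1 was 9.30-fold lower in the mimic organoids, a log2 fold change of -3.22 (standard error 0.29, 95% confidence interval -3.88 to -2.55), with an adjusted p of 0.00499 in edgeR. By p-value it stood at place 19 among the 17155 tested genes. Whichever library was left out, the log2 fold change stayed between -3.50 and -2.89 with an adjusted p of at most 0.000505. On the TPM scale its level was 5.04 and 7.72 against 0.75 and 0.67, so it was a low gene in the control organoids too. Of 8 markers of pancreas and liver, Ptf1a, Prss1, Cpa1 and Ins2, which define the pancreas, were at 0 counts in every library. The summed normalized CPM of the 8 was 66.0 to 87.6 in the controls and 40.5 to 41.0 with the mimic, mostly from Ttr and Afp, and of the 3 tested none passed in edgeR's quasi-likelihood fit, with Ttr at an unadjusted p of 0.00272 and called lower in DESeq2 and edgeR's exact test.

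Pdx1 (ENSMUSG00000029644) lies on the plus strand of chromosome 5 (GRCm38, 147269959 to 147275848), and the RefSeq promoter is shown because counts were lower with the mimic both for Pdx1 and for Plut, an antisense RNA that overlaps this start. It covers chr5:147269847-147270146 in GRCm38.p6, from 250 bases before the RefSeq start to 50 after it, with an E-box (CACGTG) in capitals that begins 51 bases before that start:
Pdx1 promoter: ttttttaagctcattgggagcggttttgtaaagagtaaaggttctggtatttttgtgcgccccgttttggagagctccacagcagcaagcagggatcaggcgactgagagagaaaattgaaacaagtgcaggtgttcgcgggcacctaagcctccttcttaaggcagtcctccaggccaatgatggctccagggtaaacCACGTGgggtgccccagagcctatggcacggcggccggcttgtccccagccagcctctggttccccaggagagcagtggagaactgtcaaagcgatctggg

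On both strands, the E-box was found in 7.15% of 32851 promoters of this length. A GATA motif (GATAA) and a CDX motif (TTTAT) were found in 25.4% and 40.0% of them, and in neither case in the promoter of Pdx1. None of the 3 motifs contains another. Such a match is a description of the sequence and not a binding site.

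The window of 200 kb on each side of Pdx1 holds 21 annotated genes, of which 10 were tested. Plut (147228596 to 147271521, minus strand), had 77 and 76 counts in the control libraries against 9 and 7 in the mimic libraries. Plut fell by 3.19 on the log2 scale (standard error 0.39), with an adjusted p of 0.0103 in edgeR. The strand setting is not given in the sources used here. Gata5 and its antisense gene Gata5os had 770.54 and 38.46 expected counts in control replicate 1, which add to a whole number. Their counts did so in every library, so reads there were divided between strands and not counted by strand. The falls of Plut and Pdx1 are therefore not resolved by strand. The expected counts of Plut and Pdx1 were whole in every library, so no read showed as divided between them. Whether reads of one gene were assigned to the other was not tested. Gm27033, a long noncoding RNA downstream of Pdx1 (147280720 to 147281263), had 15 and 16 counts in the control libraries against 3 and 1 in the mimic libraries. At a log2 fold change of -2.83 (standard error 0.64), its adjusted p of 0.0573 missed the threshold. Cdx2, another member, is the next coding gene on this side, 24956 bases beyond Pdx1, and its log2 fold change was 0.32. For the other 6 tested genes of the window the log2 fold change lay between -0.28 and 0.19, and none of them passed the test.

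**Figure D2:**
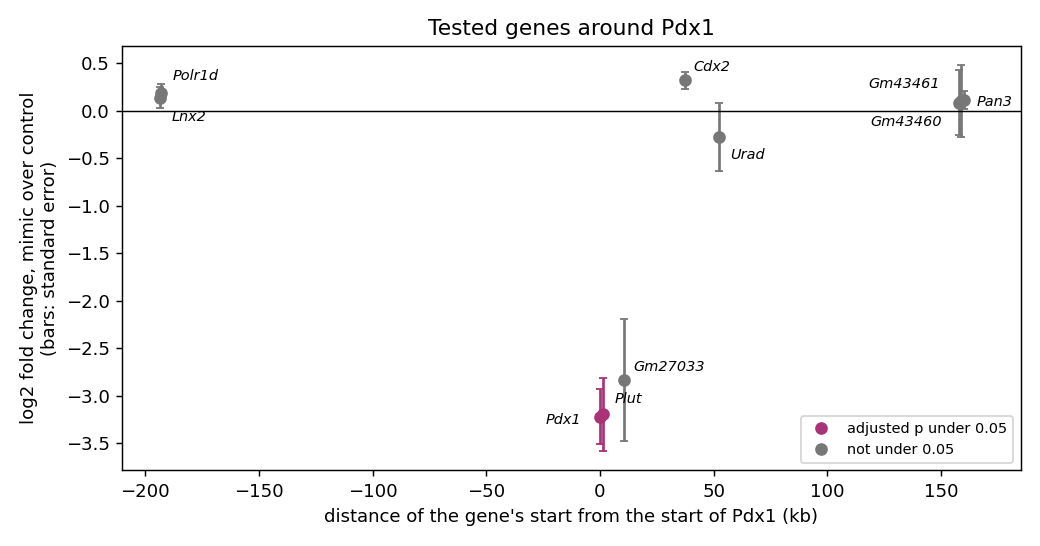
Log2 fold change (mimic over control, bars are standard errors) of the 10 tested genes within 200 kb of Pdx1, against the distance of each gene's start from that of Pdx1 in kb. Pdx1, Plut and Gm27033 lie between -3.22 and -2.83, and the other 7 genes, Cdx2 among them, lie between -0.28 and 0.32.

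Both CDX genes were higher in each mimic library than in each control, and 1 of them passed the test. In GRCm38, Cdx1 (ENSMUSG00000024619) lies on chromosome 18 from 61018862 to 61036199, and Cdx2 (ENSMUSG00000029646) on chromosome 5 from 147300805 to 147307270, both on the minus strand. Cdx1 stood at 97.4 and 89.7 normalized CPM in the control libraries and at 134 and 125 in the mimic libraries, 1.39-fold higher. Its log2 fold change was 0.47 (standard error 0.098, 95% confidence interval 0.24 to 0.70), and its adjusted p of 0.0477 in edgeR was close to the threshold. The call was lost in 7 of 15 alternative analyses, the leaving out of either mimic library among them (adjusted p = 0.211 without replicate 3 and 0.074 without replicate 4), while the log2 fold change stayed between 0.42 and 0.53 in all 15. Cdx2 stood at 137 and 136 normalized CPM in the control libraries and at 169 and 172 in the mimic libraries, so that replicates differed by far less than the groups. Its log2 fold change was 0.32 (standard error 0.089, 95% confidence interval 0.11 to 0.53) and its adjusted p was 0.0902. DESeq2 alone of the 15 alternatives put Cdx2 past the threshold, with an adjusted p of 0.0436.

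None of the GATA genes passed the test, and their directions differed. In GRCm38, Gata4 (ENSMUSG00000021944) lies on chromosome 14 from 63198922 to 63271692, Gata5 (ENSMUSG00000015627) on chromosome 2 from 180325133 to 180334699 and Gata6 (ENSMUSG00000005836) on chromosome 18 from 11052064 to 11085635. Gata4 stood at 172 and 179 normalized CPM in the control libraries and at 162 and 146 in the mimic libraries. Both mimic libraries lay below both controls, but the log2 fold change of -0.19 (standard error 0.098, 95% confidence interval -0.42 to 0.04) had an adjusted p of 0.273 in edgeR. Gata5 stood at 20.1 and 13.2 normalized CPM in the control libraries and at 24.2 and 20.0 in the mimic libraries. Its groups overlapped, and the interval of its log2 fold change ran from -0.08 to 0.89. The expected counts of Gata5 were not whole in any library (407.87 to 770.54), so some of its reads were divided with another gene. In every library its counts add to a whole number with those of Gata5os, the antisense gene that overlaps it, so the division was with Gata5os. Gata6 stood at 112 and 121 normalized CPM in the control libraries and at 117 and 122 in the mimic libraries, which overlapped, and its log2 fold change was 0.04 (95% confidence interval -0.18 to 0.26, adjusted p = 0.812 in edgeR). On the fold scale that interval ran from 0.884 to 1.20. An opposite-strand transcript, 1010001N08Rik, also overlaps Gata6 and had 584 to 809 counts.

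The HNF4 genes were both above 0 without passing the test. In GRCm38, Hnf4a (ENSMUSG00000017950) lies on chromosome 2 from 163506808 to 163572910 and Hnf4g (ENSMUSG00000017688) on chromosome 3 from 3508030 to 3658052. Hnf4a stood at 680 and 734 normalized CPM in the control libraries and at 828 and 840 in the mimic libraries, so the groups were apart. The log2 fold change came to 0.24 (standard error 0.11, 95% confidence interval -0.01 to 0.49, adjusted p = 0.217 in edgeR). Hnf4g stood at 97.3 and 119 normalized CPM in the control libraries and at 142 and 116 in the mimic libraries. These overlapped, and the log2 fold change of 0.25 had a 95% confidence interval of -0.07 to 0.57 (adjusted p = 0.297 in edgeR). An antisense gene, Hnf4aos, overlaps Hnf4a but had 11 to 19 counts against 22743 to 29888 for Hnf4a.

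**Figure D3:**
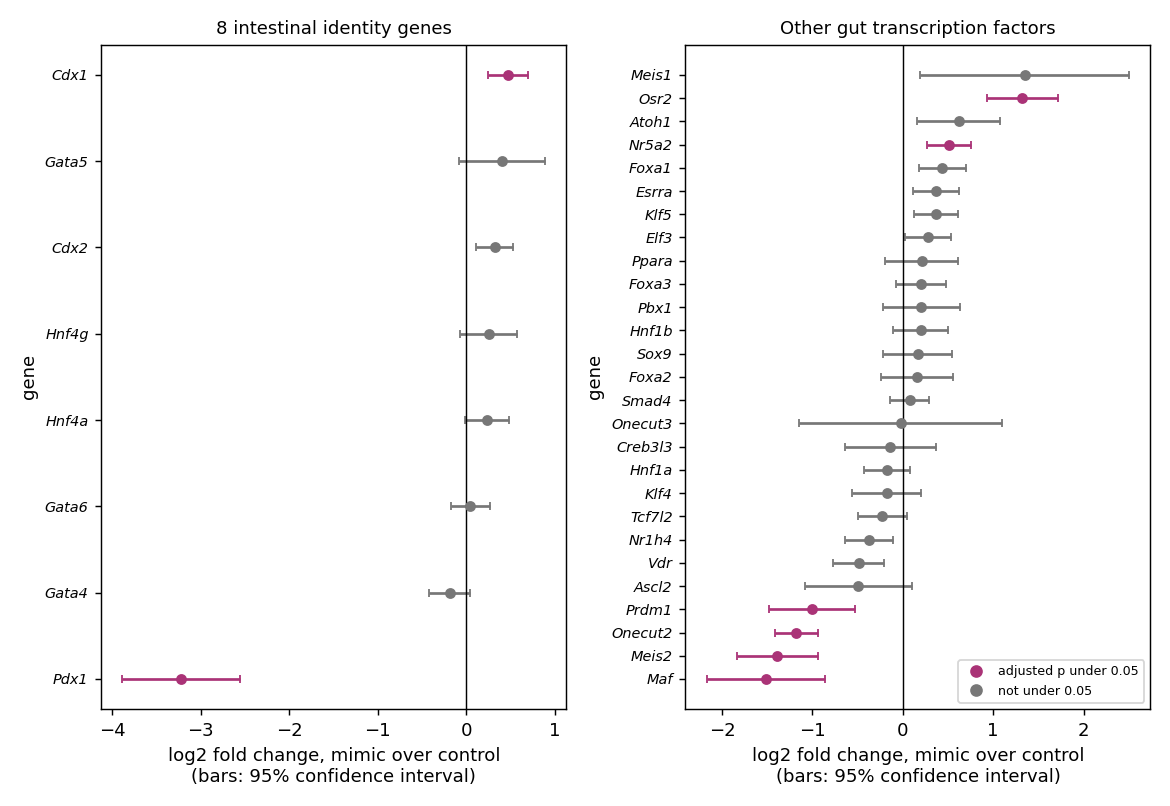
Log2 fold change (mimic over control) with its 95% confidence interval for the 8 members and for 27 tested genes of other gut transcription factors, with genes at an adjusted p under 0.05 in purple. Pdx1 lies at -3.22 and the other 7 members between -0.19 and 0.47, whereas the other factors range from -1.51 to 1.35.

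Levels between genes were compared in TPM, which is scaled for length. Hnf4a was the highest member, with a mean of 223 ± 8.85 TPM in the controls and 277 ± 13.8 with the mimic (SD, n = 2 libraries). Cdx2, Cdx1 and Gata4 followed with means over the 4 libraries of 86.2, 82.1 and 81.9 TPM, then Hnf4g with 65.0 and Gata6 with 53.7. Gata5 and Pdx1 were the lowest, at 7.39 and 3.55 TPM. In the controls Gata4 (88.7 and 91.0 TPM) lay above Cdx2 (74.6 and 74.9) and Cdx1 (69.4 and 64.8) in both libraries. With the mimic that order was turned, as Gata4 (76.0 and 71.9 TPM) lay below Cdx2 (92.4 and 103) and Cdx1 (96.1 and 98.1) in both. Neighbours whose libraries overlapped were Hnf4g and Gata6 and Gata5 and Pdx1 in the controls, and Cdx2 and Cdx1 and Gata4 and Hnf4g with the mimic. Gata5, at 9.03 and 8.15 TPM with the mimic, then lay clearly above Pdx1.

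The balance between paralogs was read as a share of their summed TPM in each library. Gata4 made up 60.7% and 60.7% of the summed TPM of Gata4, Gata5 and Gata6 in the control libraries, against 55.1% and 52.1% in the mimic libraries. This difference of -7.10 percentage points had p = 0.333 in a two-sided exact permutation test, which is the smallest p that 2 libraries against 2 allow. Cdx2 made up 51.8% and 53.6% of Cdx1 and Cdx2 in the control libraries, against 49.0% and 51.2% in the mimic libraries (exact permutation p = 0.333). Hnf4a made up 80.6% and 78.1% of Hnf4a and Hnf4g in the control libraries, against 77.9% and 80.9% in the mimic libraries, and these overlapped. The larger shift in points was in the GATA genes, where it came with lower Gata4 and slightly higher Gata5 and Gata6 values. The GATA paralogs of other tissues, Gata1, Gata2 and Gata3, the cofactor gene Zfpm2 and Cdx4 each had at most 0.07 TPM in any library. The cofactor gene Zfpm1 (54.6 to 72.3 TPM) was the one gene of this group that was tested, with a log2 fold change of 0.13 (adjusted p = 0.639 in edgeR).

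Among 29 genes of other gut transcription factors, 27 were tested, 2 rose and 4 fell, and their median log2 fold change was 0.15. Of all 17155 tested genes 3.57% were called, and their median was -0.01. The genes that rose were Osr2 (1.32, adjusted p = 0.0121), an odd-skipped zinc finger gene, and Nr5a2 (0.51, 0.0471), a nuclear receptor of the crypt. Those that fell were Maf (-1.51, 0.0374), a factor of enterocytes, Meis2 (-1.39, 0.0161), a TALE homeobox gene, Onecut2 (-1.18, 0.00473), a factor of the duodenum, and Prdm1 (-1.01, 0.046), a repressor of the immature intestine, all in edgeR. Of 15 alternative analyses, 5 lost the call of Maf, among them the robust quasi-likelihood fit (adjusted p = 0.0837). The call of Nr5a2 was lost in 7 and that of Prdm1 in 8, in both cases including those without control replicate 1 and without either mimic library. Nr5a2, which rose, held 1 full seed match in a 3′ UTR of 2892 bases. Onecut2, which fell, held 6 in a 3′ UTR of 14356 bases, 2 of them followed by an A. Whether these matches bear on either change was not tested. By the distance of their centred log2 normalized CPM over the 4 libraries, the 2 genes nearest to Pdx1 among 32 candidates were Meis2 (1.83) and Onecut2 (2.04). Those nearest to Cdx1 were Nr5a2 (0.091) and Foxa1 (0.11).

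Genes that CDX2 and HNF4 are known to activate were read beside the factors themselves. Of 12 CDX2 target genes, 10 were tested and 0 passed the test in edgeR's quasi-likelihood fit, 4 of them having an unadjusted p under 0.05, and their median log2 fold change was 0.17. DESeq2 and edgeR's exact test each called 1 of them higher and 1 lower. Sis (sucrase-isomaltase) and Cdh17, the 2 with the highest TPM, had log2 fold changes of 0.16 and 0.18. Of 10 HNF4 target genes, all tested, Apoc2, an apolipoprotein gene, fell (-1.19, standard error 0.23, adjusted p = 0.0413 in edgeR's quasi-likelihood fit) and 0 rose (0 at an unadjusted p under 0.05, and 0 in DESeq2 or the exact test). DESeq2 called 2 of them lower and the exact test 4, and 5 were lower at an unadjusted p under 0.05. The call of Apoc2 was lost in 5 of 15 alternative analyses, the robust quasi-likelihood fit among them (adjusted p = 0.0797), and with a library left out its log2 fold change ran from -1.54 to -0.74, the latter without control replicate 2. The median of the 10 targets was -0.48 and 9 of the 10 values were below 0, while Hnf4a and Hnf4g themselves were at 0.24 and 0.25. Over all tested genes 3.57% were called and the median was -0.01. The summed normalized CPM of the 10 was 2797 and 4057 in control replicates 1 and 2, against 2805 and 2670 in the mimic libraries. On this sum control replicate 1 lay between the mimic libraries, so its drop rests on control replicate 2. Gene by gene, both mimic libraries were below both controls for 7 of the 10 and above them for 0. The groups were apart, in either direction, for 58.4% of all tested genes.

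The fall of Pdx1 was set beside other genes with a regional pattern. Of 20 genes of the proximal small intestine, 19 were tested, 3 fell and 1 rose, with a median log2 fold change of -0.32. For this list and the distal one below, the share called over all tested genes was 3.57% and their median -0.01. The summed normalized CPM of the 20 was 2449 and 4049 in control replicates 1 and 2, against 1937 and 1995 in the mimic libraries. On this sum control replicate 1 lay nearer to the mimic libraries than to control replicate 2. The list shares genes with those above, among them Onecut2 with the other gut factors and Fabp1 and Apoa4 with the HNF4 targets. In control replicates 1 and 2, Fabp1 stood at 367 and 668 normalized CPM and Apoa4 at 394 and 754. The sums of these lists are therefore not separate readings. Slc40a1, the iron exporter gene, fell by 6.69 on the log2 scale, Reg1, a secreted lectin gene with close paralogs, by 5.22 and Onecut2 by 1.18, whereas Slc2a5, the fructose transporter gene, rose by 2.06 (adjusted p = 0.0103 in edgeR). Slc40a1 had 1956 and 3754 counts in the control libraries against 7 and 49 with the mimic, and its log2 fold change was -8.56 without mimic replicate 4, -5.95 without mimic replicate 3 and -5.93 without control replicate 2. Its call was lost in the robust quasi-likelihood fit (adjusted p = 0.0708). Without mimic replicate 3, Reg1 was at -6.11. Of 12 genes of the distal small intestine, 11 were tested, 3 rose and 0 fell in edgeR (0 at an unadjusted p under 0.05, and 0 in DESeq2 or the exact test), with a median of 1.60 and all 11 values above 0. Those that rose were Slc5a8 (6.55), a monocarboxylate transporter gene, Cubn (3.44), which encodes a vitamin B12 receptor, and Naaladl1 (3.42), a peptidase gene. Without mimic replicate 4, Slc5a8 was at 5.80 and Cubn at 2.79. Without the 7 genes of both lists that earlier results of these data had named, the distal list had a median of 0.98 with 0 of 8 tested genes called in edgeR's quasi-likelihood fit (6 at an unadjusted p under 0.05, 3 in DESeq2 and 5 in the exact test), and the proximal list a median of -0.13 with 2 of 15 called. Fabp6, the ileal bile acid binding protein gene, had at most 0.10 TPM in any library. Of 7 genes listed as colonic, 3 were tested and 0 passed in edgeR's quasi-likelihood fit (1 at an unadjusted p under 0.05), while DESeq2 and the exact test each called 1 lower. Slc26a3, an anion exchanger gene, and Ang4, an antimicrobial ribonuclease gene, the 2 with the highest TPM, had log2 fold changes of 0.14 and -1.03 (adjusted p = 0.392 and 0.0512 in edgeR). In the small intestinal control libraries Slc26a3 stood at 49.2 and 53.3 TPM and Ang4 at 30.7 and 20.8, so neither marks the colon here. Car1, Hoxb13 and Saa1, also on this list, were at 0 counts in every library. Of 14 gastric genes, 3 were tested and 0 passed in edgeR's quasi-likelihood fit (1 at an unadjusted p under 0.05). In DESeq2 and edgeR's exact test 1 of the 3, Atp4a, a proton pump gene named here after its values were seen, was called lower. Sox2 and Barx1, defining factors of the stomach, were at 0 counts in every library.

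**Figure D4:**
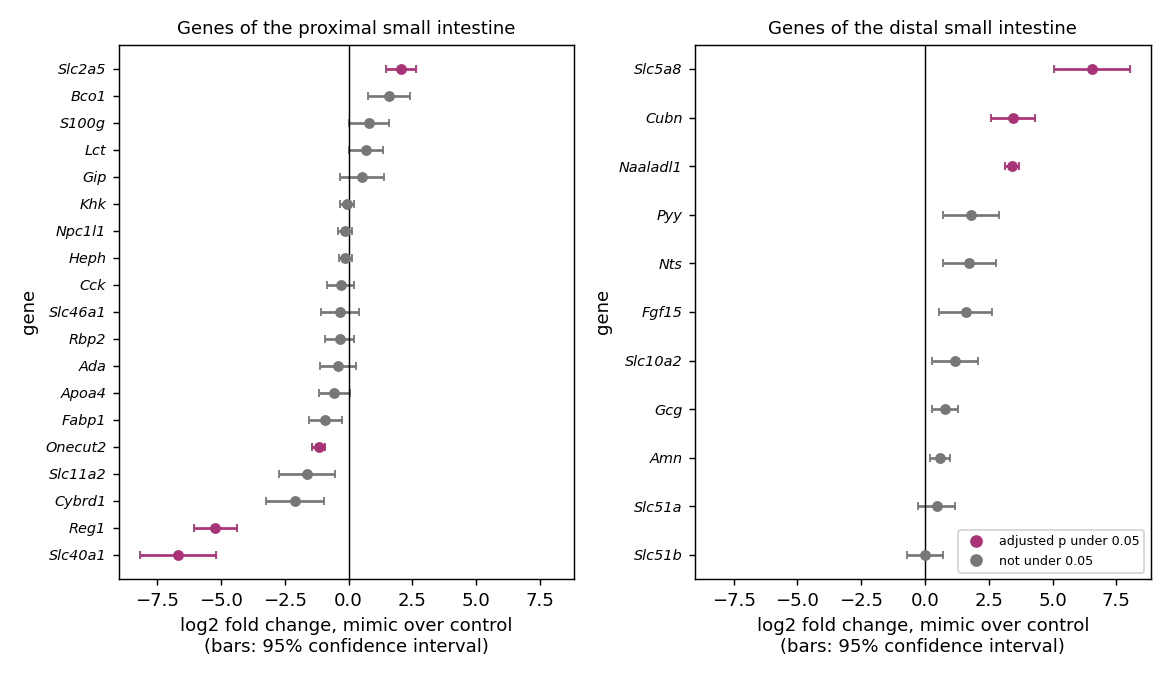
Log2 fold change (mimic over control) with its 95% confidence interval for 19 tested genes of the proximal and 11 of the distal small intestine, with genes at an adjusted p under 0.05 in purple. Proximal genes lie on both sides of 0, from -6.69 to 2.06, and distal genes from 0.0011 to 6.55.

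HOX genes, which encode position along the body axis and are regulated by CDX factors in the embryo, were near silence in the controls. Over 39 HOX genes the summed counts were 13 and 7 in the control libraries against 106 and 186 in the mimic libraries, and no HOX gene had more than 3 counts in a control library. Hoxd4 had 0 and 0 counts in control libraries against 25.0 and 21.2 with the mimic, Hoxb8 had 0 and 0 against 12 and 34, Hoxb9 had 0 and 0 against 14 and 26, and Hoxa3 had 1 and 0 against 17.1 and 16.9. Against a floor of 3 counts per control library, mean normalized CPM with the mimic was at least 7.93-fold higher for Hoxd4, 7.65-fold for Hoxb8 and 6.73-fold for Hoxb9. The limit was 4.38-fold for Hoxb8 and 5.11-fold for Hoxb9 without mimic replicate 4, and 6.74-fold for Hoxd4 without mimic replicate 3. The counts of Hoxd4 and Hoxa3 in the mimic libraries were not whole, so some of their reads were divided with other genes. These 4 genes were tested and called higher (adjusted p = 0.0188 to 0.0448 in edgeR), but they passed the filter only through the mimic libraries, so their count is no support by itself. With control replicate 1 left out 1 HOX gene was called, and with mimic replicate 4 left out 2 were. Both mimic libraries were above both controls for 12 of the 39 genes and below them for 0, while 20 of the 39 had 0 counts in every library. Over all tested genes the groups were apart, in either direction, for 58.4%. That share covers genes that passed the filter, as 4 of the 39 HOX genes did, so the 2 shares have unlike bases. The 12 genes of paralog groups 10 to 13, the most posterior, had at most 1 count in any library, and 14 of the 39 overlap a gene on the opposite strand. No HOX gene reached the 38 counts that were the lowest value of Pdx1, the lowest of the 8 members.

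**Figure D5:**
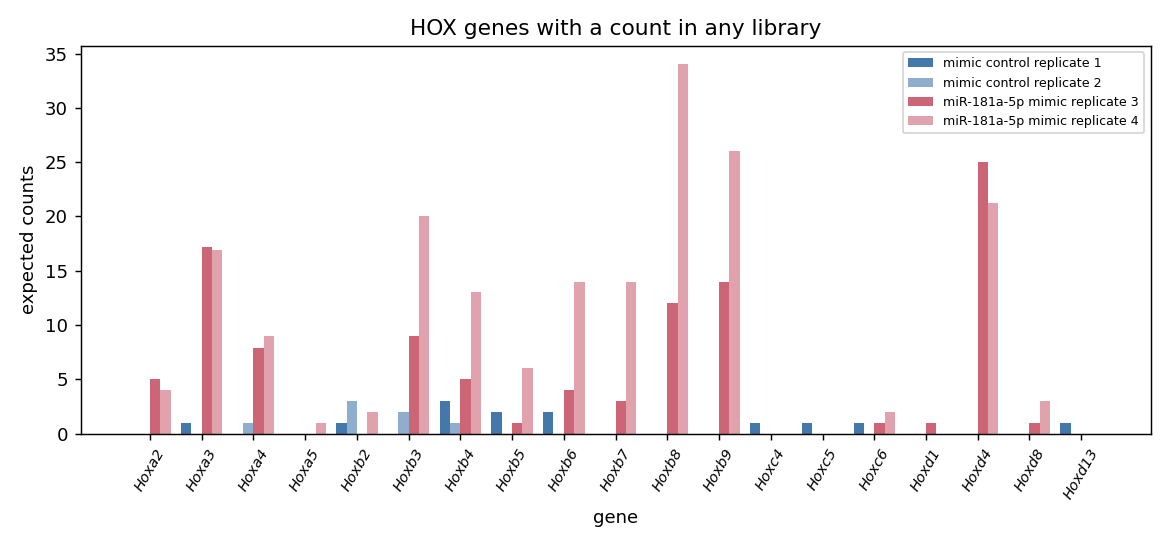
Expected counts of the 19 HOX genes with a count in any library, as 1 bar for each of the 4 libraries. Control bars reach at most 3 counts, and mimic bars reach 34 counts in Hoxb8, with counts in the a, b and d clusters and few in the c cluster.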

How the data were processed

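Single reads of 100 cycles from mouse SI organoids were trimmed with Trimmomatic and mapped to GRCm38 transcripts with RSEM by the authors, who deposited the expected count (RSEM's estimated count) of each gene, not normalized, and its TPM. The annotation release and the strand setting are not given in the sources used here. The labels name poly(A) selection, whereas the supplement names depletion of ribosomal RNA. In each deposited table, 3 columns matched no sample here and were not used. Groups were taken from the labels (2 libraries each). Replicate numbers were read from the last digit of each sample title, which for the mimic group is an inference.

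Rounded expected counts were tested in edgeR 4.0.16 (R 4.3.3) with filterByExpr, TMM, estimateDisp, glmQLFit (legacy=FALSE) and glmQLFTest. P-values were adjusted by Benjamini and Hochberg's method over 17155 genes. Intervals are from the same fit. The steps were tested on simulated data. Alternatives used other normalization or filters, edgeR's exact, robust and legacy tests, DESeq2 1.42.0, limma 3.58.1 on log2(TPM + 1) or log2(TPM + 0.1) of genes with at least 1 TPM in 2 libraries, and each library left out. The legacy form was added after seeing the data. Shares were compared by exact permutation in scipy 1.17.1, and plots drawn in matplotlib 3.10.9.

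The members and lists were chosen with earlier results of these data known. All members are named, with every called gene of the other lists (at most 5 per list and direction), the 2 highest by TPM of a list with none, and, for each called member, the 2 nearest factors. Any further gene was picked with its values in view. Coordinates and UTRs came from GENCODE release M21 (GRCm38), and miRNA and promoter sequences from RefSeq. Depth was 31104884 to 38111731 counts, and the intervals rest on 2 libraries per group. Of the genes on the lists, 2 are not reported here and were left out of the counts.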

Additional observations from a re-analysis of the deposited data

How the results depend on the processing

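Of 15 alternatives, Pdx1 kept its call in 14, with a log2 fold change between -3.50 and -2.09, and missed the threshold in limma on log2(TPM + 1) without a filter (adjusted p = 0.269). Gata4, Gata5, Hnf4a and Hnf4g kept their direction and stayed uncalled in all 15, and Cdx2 in all but DESeq2. The number of members called fell from 2 to 1 without a filter on low counts, in the legacy quasi-likelihood form, which was added after seeing the data, and in limma on log2(TPM + 1) and on log2(TPM + 0.1), and to 0 in limma without a filter. It was 1 to 2 when a library was left out, 1 without either mimic library. Without control replicate 1, Gata6 was at -0.017, and its range over left-out libraries was -0.017 to 0.10.

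The count of other gut factors called, 6, fell to 3 without a filter on low counts, to 2 in limma on log2(TPM + 1), and to 0 at log2(TPM + 0.1) or without a filter. It was 8 in the exact test, 9 in DESeq2 and 4 to 8 with a library left out, 4 without either mimic library and 8 without control replicate 2. Proximal genes called, 4, became 8 in the exact test, 2 at log2(TPM + 0.1), 0 in limma without a filter and 7 to 10 with a library left out. Distal genes called, 3, became 8 in the exact test, 6 in DESeq2, 1 in each filtered TPM fit, 0 without a filter and 3 to 6 with a library left out, with 6 without control replicate 2 and 5 without control replicate 1. Gastric genes called, 0, became 1 in the exact test and 1 in DESeq2, and 0 to 2 with a library left out, the 2 without control replicate 2. HOX genes called, 4, became 0 without a filter on low counts and 0 in the unfiltered TPM fit, and 1 to 6 with a library left out, and they gave no value at 10 counts in every library, in the filtered TPM fits or in DESeq2, which left their adjusted p undefined. The Gata4 share moved by -4.90 points in normalized CPM, and the Hnf4a share by -1.50 to 1.47 points with a library left out, turning its direction. The cause of these shifts was not tested. No paired analysis was run, because the labels name no pairs and the replicate numbers, as read from the titles, are not shared. HOX genes had at most 3 counts in a control library, and Gm27033 had 3 and 1 in the mimic libraries.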
